A study of Mus musculus with 4 samples.

Results

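Krt42, Krt17, Krt6a and Krt6b are keratin genes, and their probe sets were examined in the distal and the proximal nail matrix of the mouse. A probe set is a group of short oligonucleotides designed to read the RNA of a gene. The members were all probe sets that carry one of these 4 gene symbols in the authors' deposited list. They came to 5 of the 1435 listed probe sets and to 4 of the 1133 genes that the list names singly. Krt42 had 2 probe sets and each other gene had 1. The members were thus selected on the authors' fold change between these regions on these same arrays, at a cut-off of 1.99. The differences between the regions are therefore given as a description, without p-values, and the counts of limma calls given further on support nothing about the members.

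The nail plate is made by the nail matrix, a proliferating epithelium at the root of the nail. Microdissected tissue came from mice aged 8 weeks, described as intact, with 2 arrays for the distal matrix and 2 for the proximal matrix. The labels give no strain, sex or genotype and do not say whether the 2 arrays of a region came from separate animals or from pools. The spread between them may thus be technical. The number of arrays limits the precision of every value here.

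Keratins build the intermediate filaments of epithelial cells, and each filament pairs a type I with a type II keratin. Krt42 and Krt17 encode type I keratins, and Krt6a and Krt6b encode type II keratins that can pair with Krt17. Krt17 and the Krt6 genes are known from the nail bed, from the outer root sheath of the hair follicle and from wounded epidermis, and human mutations in KRT17, KRT6A or KRT6B cause pachyonychia congenita, a disease of thickened nails. Krt42 is known as a keratin of mouse nail. The 4 arrays analysed here hold no nail bed sample, so the name nail bed type keratin rests on that background and was not checked against nail bed tissue.

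In the RefSeq gene order of GRCm38.p6, Krt17 and Krt42 are direct neighbours on chromosome 11, with Krt16 and Krt14 beyond Krt17. Krt6b and Krt6a are direct neighbours on chromosome 15, with Krt5 beyond Krt6a. The build behind the arrays' annotation was not given in the sources used here, so gene coordinates are not used. The promoter window of Krt42 is shown because the sequences used here held no window for Krt17, Krt6a or Krt6b. It spans chr11:100269902-100270201 on the minus strand of GRCm38.p6 (RefSeq), 250 bases before the annotated start and 50 from it on, written 5′ to 3′, with the motif TATAAA in capitals.
Krt42 promoter: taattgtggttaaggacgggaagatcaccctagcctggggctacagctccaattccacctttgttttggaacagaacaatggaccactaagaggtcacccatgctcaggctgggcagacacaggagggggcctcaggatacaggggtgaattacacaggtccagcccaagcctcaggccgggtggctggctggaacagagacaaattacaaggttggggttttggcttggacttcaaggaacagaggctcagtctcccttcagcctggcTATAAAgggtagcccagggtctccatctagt
The TATAAA motif begins 19 bases downstream of the annotated start, and 13.6% of 32544 RefSeq promoter windows of this length hold it on either strand. CCAAT occurred once as well, a motif that 37.4% of windows hold on either strand. TGANTCA (7.79% of windows) and CTTTGA (16.02%) were also searched on both strands, with no match in these letters. No array value bears on the use of any of these motifs.

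Krt42 (Entrez gene 68239) had far higher intensities in the distal matrix. Its brighter probe set, 1439765_x_at, read 8877 and 12310 on the distal arrays, against 731 and 1415 on the proximal arrays. Both distal arrays lay above both proximal arrays, and the lower distal intensity was still 6.28-fold above the higher proximal one. The log2 intensity averaged 13.35 ± 0.33 in the distal and 9.99 ± 0.67 in the proximal matrix (SD, n = 2 arrays each). The log2 difference, distal minus proximal, was 3.36 with a standard error of 0.29 from the limma fit over all probe sets, or 10.3-fold. That fit draws on the variances of other probe sets of like intensity. The standard errors given here thus do not measure the scatter of a probe set's own arrays alone. The pooled SD within regions was 0.53 for this probe set, 0.17 for Krt17 and 0.15 for Krt6a.

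The second probe set of Krt42, 1430208_at, read 1357 and 1771 on the distal arrays, against 270.2 and 402 on the proximal arrays. The regions again did not overlap, and the lower distal intensity was 3.38-fold above the higher proximal one. Its log2 difference was 2.23 with a standard error of 0.40, or 4.71-fold. Both probe sets thus had the same direction, with a larger fold for the first. In each region, replicate 2 was the brighter array for both probe sets. By the array maker's naming, the suffix x marks a probe set in which some probes also match other transcripts. The part of such cross-matching in the larger fold was not tested.

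**Figure D1:**
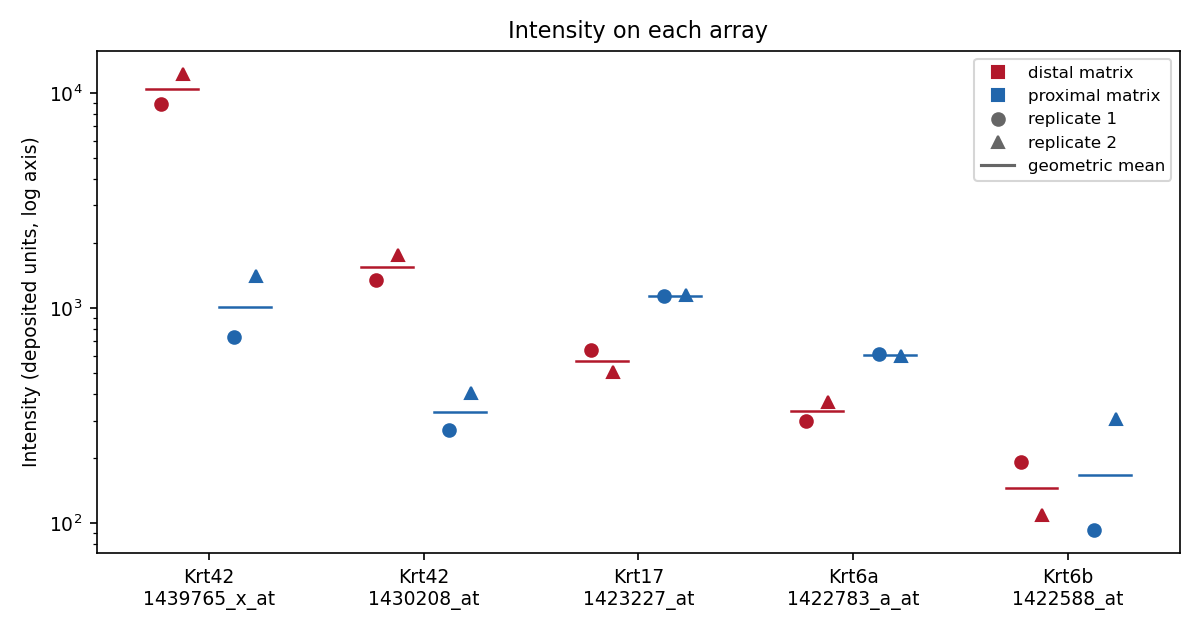
Intensity (deposited units, log axis) of the 5 probe sets on each array. Red stands for the distal and blue for the proximal matrix, circles for replicate 1, triangles for replicate 2, and each line for the geometric mean of 2 arrays. Distal arrays lie above proximal arrays for both probe sets of Krt42 and below them for Krt17 and Krt6a, while the regions overlap for Krt6b.

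Krt17 (Entrez gene 16667), the direct genomic neighbour of Krt42, had the opposite direction. Its probe set 1423227_at read 640 and 507 on the distal arrays, against 1135 and 1146 on the proximal arrays. The proximal arrays differed from each other by 1.01-fold and the distal arrays by 1.26-fold, and the regions did not overlap. The log2 difference was -1.0 with a standard error of 0.37, which puts the proximal intensity 2.0-fold above the distal one. The lower proximal intensity was 1.77-fold above the higher distal one.

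Krt6a (Entrez gene 16687) had the same direction as Krt17. Its probe set 1422783_a_at read 298 and 368 on the distal arrays, against 611 and 598 on the proximal arrays, with no overlap. The log2 difference was -0.87 with a standard error of 0.46, which puts the proximal intensity 1.82-fold above the distal one. Within the distal matrix the brighter array was replicate 2 for Krt6a and replicate 1 for Krt17.

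Krt6b (Entrez gene 16688) gave no order of the regions. Its probe set 1422588_at read 193 and 109.7 on the distal arrays, against 92.7 and 306 on the proximal arrays. The 2 proximal arrays differed from each other by 3.30-fold and enclosed both distal values. The log2 difference was -0.21 with a standard error of 0.74. It was 0.20 without distal replicate 2 and 0.65 without proximal replicate 2, and -1.07 without proximal replicate 1. The intensity of 92.7 lay below the highest Bacillus subtilis control probe set on that array, which read 96.8. Such controls match no mouse transcript and stand here for the background. All other intensities of the 5 probe sets lay above that control on their arrays. Krt6a and Krt6b are known as closely related genes, and whether the probe set of either also reads the other was not tested.

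The dissected tissue holds several cell types, and fewer cells of a type and less RNA per cell cannot be told apart in these values. Of 8 fibroblast markers, Dcn was the 1 that the list names. Its intensities were 243 and 309.7 on the distal arrays, against 984 and 1049 on the proximal arrays, the same direction as Krt17 and Krt6a. Of 15 markers of hard keratin and nail plate, the 6 in the list were all keratin-associated protein genes and all had higher intensities in the distal matrix, the direction of Krt42. Their median log2 difference was 2.36, against -0.06 for all probe sets, and these genes too were in the list for their fold. Of 7 epidermal markers, Krt1, Krt2 and Lor were in the list and did not share a direction. Krt1 was higher in the distal matrix (log2 difference 1.24), and Krt2 (-2.02) and Lor in the proximal matrix. Lor read 58.7 and 4.2 on the distal arrays, against 331 and 239.2 on the proximal arrays. Of 6 basal markers, Krt15 and Itgb4 were in the list, and the integrin gene Itgb4 read 12.1 and 182.2 on the distal arrays, against 216 and 163 on the proximal arrays, with overlapping regions. The 4.2 of Lor and the 12.1 of Itgb4 lay below the highest Bacillus subtilis control of their arrays. So did both proximal values of the keratin-associated protein gene Krtap6-1 (67.5 and 43.4). The same held for Krtap16-8 (94.6) and Krtap9-3 (15.4) on proximal replicate 1. The part of any of these cells in the member values was not tested. Markers of pigment, Schwann, endothelial, immune, muscle, bone, blood and Merkel cells could not be named from the list and were not used here.

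Both probe sets of Krt42 were among the probe sets called by limma at a Benjamini-Hochberg adjusted p under 0.05, where 24 of 45037, or 0.0533%, were called as higher in the distal matrix. Of the 3 probe sets of Krt17, Krt6a and Krt6b, limma called 0, where 6 of 45037, or 0.0133%, were called as higher in the proximal matrix. At an unadjusted p under 0.05 there was 1 of the 3, against 2294 of 45037, or 5.09%, in either direction. The regions did not overlap, with proximal higher, for 2 of these 3, as for 18.3% of all probe sets. With distal higher they did not overlap for both probe sets of Krt42 and for 16.4% of all, and in either direction for 34.7% of all. The rule had used this contrast, so nothing is read from these counts. The counts hung on single arrays: limma called 899 and 635 probe sets in all without distal replicate 1 and 2, and 4 and 7 without proximal replicate 1 and 2, against 30 with all 4 arrays. The brighter Krt42 probe set was called each time, the other was not called without either proximal replicate, and Krt17 was called without distal replicate 1.

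The level of each probe set over all 4 arrays was not part of the rule. By mean log2 intensity the brighter Krt42 probe set stood at the percentile of 98.4 among 45037 probe sets, and the other at 93.7. Krt17 stood at 94.3, Krt6a at 90.6 and Krt6b at 80.2. These ranks describe brightness, and probe sets differ in how strongly they bind, so they do not order the amounts of RNA. Among the brightest 10% of probe sets, 4504 in all, the median absolute log2 difference between the regions was 0.30. Krt42 ranked 1 there in the distal direction with its brighter probe set and 6 with the other. In the proximal direction Krt17 ranked 112 and Krt6a 174 of the same 4504. These ranks by difference restate the contrast on which the members were selected, and nothing is read from them.

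In the authors' deposited table Krt42 was 8.95-fold and 4.70-fold higher in the distal matrix, and these probe sets ranked 5 and 18 by fold among the 425 listed as higher there. The same table has Krt17 2.72-fold, Krt6b 2.14-fold and Krt6a 2.01-fold higher in the proximal matrix, at ranks 282, 750 and 957 of 1010. Krt6a thus stood just inside the cut-off of 1.99, and probe sets outside it are not in the list. The steps behind these log2 group values were not given in the sources used here. They lay close to the intensities for the second probe set of Krt42, at 2.23 by either source. They lay far from them for Krt6b, at -1.10 in the authors' deposited table and -0.21 in the intensities. Of the 1435 listed probe sets, 98.6% had the same sign by both sources, 74.1% had no overlap between the regions in intensity, and 78 had an absolute log2 difference in intensity under 0.5, Krt6b among them.

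**Figure D2:**
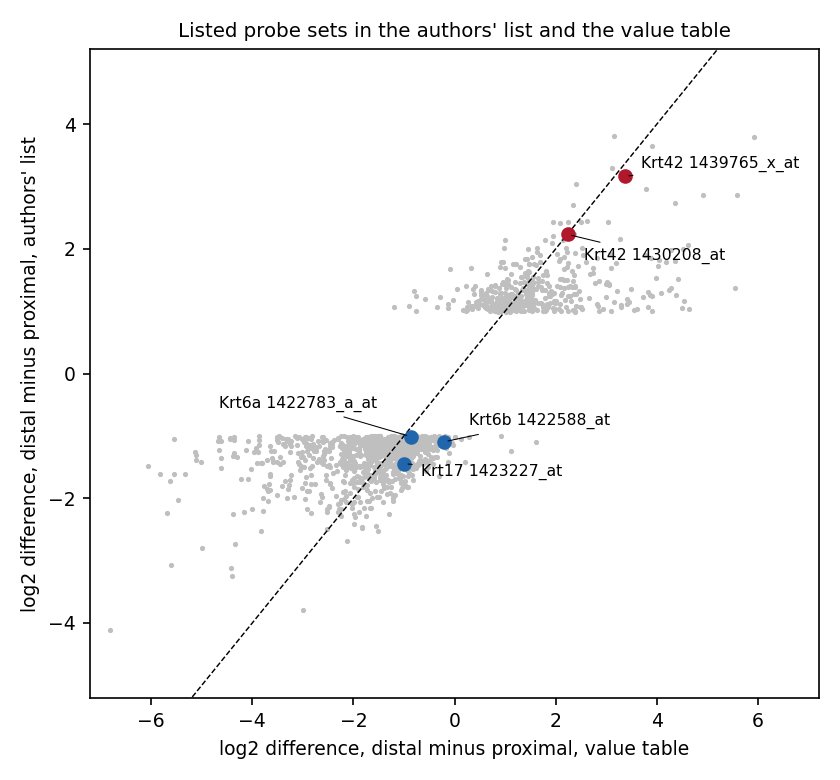
Log2 difference, distal minus proximal, in the authors' deposited list (vertical axis) against the same difference computed from the intensities (horizontal axis) for the 1435 listed probe sets in grey, with the members in red (higher in distal) and blue (higher in proximal). The dashed line marks equal values. Krt42 and Krt6a lie near it, Krt17 lies at -1.0 by intensity and -1.44 in the list, and Krt6b lies near 0 by intensity and at -1.10 in the list.

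The directions of Krt42, Krt17 and Krt6a were kept under each scaling tried. They were also kept with each array left out, which follows from the lack of overlap between the regions and is no separate support. The brighter probe set of Krt42 ranged from 2.89 to 3.84 on the log2 scale as single arrays were left out, and the other from 1.95 to 2.52. Krt17 ranged from -1.17 to -0.83 and Krt6a from -1.02 to -0.72. Scaling to 18 hybridization control probe sets moved the median of all probe sets by -0.51. Relative to the median of all probe sets, the difference was 3.42 for the brighter and 2.29 for the other Krt42 probe set. It was -0.95 for Krt17 and -0.81 for Krt6a. These values are the same before and after that scaling by construction, since it shifts all probe sets of an array by the same amount.

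**Figure D3:**
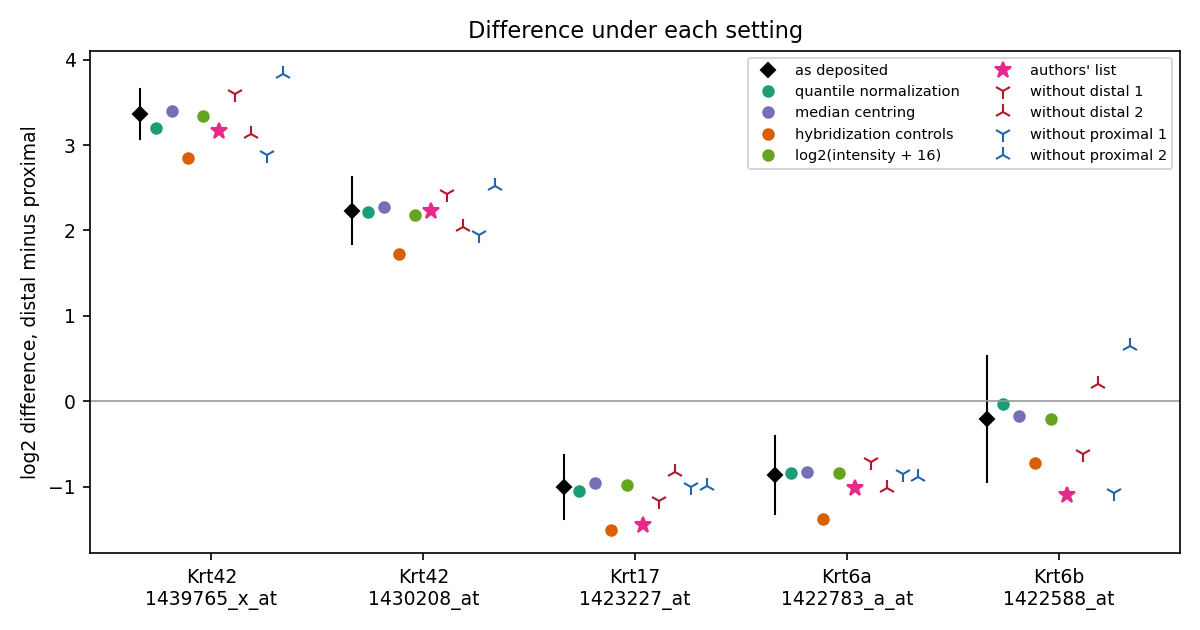
Log2 difference, distal minus proximal, of the 5 probe sets as deposited (black diamond, bar for ± 1 standard error of the limma fit), under 4 other settings (circles), in the authors' deposited list (star) and with each array left out. Krt42 stays above 0 and Krt17 and Krt6a below it at every point, while the points of Krt6b fall on both sides of 0. For Krt42, Krt17 and Krt6a the side of the points with an array left out follows from the lack of overlap between the regions.

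The authors' list also carries gene ontology terms. All 4 genes hold the term for the intermediate filament, which 18 listed probe sets carry, members included. Of these, 13 were higher in the distal and 5 in the proximal matrix in the authors' deposited table, where 29.6% of the 1435 listed were higher in the distal matrix. The term also takes in keratin-associated protein genes, among them the 6 given above as nail plate markers. Its distal majority is thus not one of keratins alone. Krt17, Krt6a and Krt6b share the terms keratinization, morphogenesis of an epithelium and intermediate filament organization, and Krt42 holds none of the 3. Lor, the gene of the cornified envelope protein loricrin, is the only other listed gene with the keratinization term. All 4 probe sets with that term were higher in the proximal matrix in the authors' deposited table, as were 70.4% of the 1435 listed, and 3 of the 4 are the members themselves.

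Of 49 other keratin genes looked for, 3 could be named from the list: Krt1, Krt15 and Krt2. Krt1, a type II keratin of the suprabasal epidermis, read 5942 and 5742 on the distal arrays, against 2495 and 2459 on the proximal arrays, a log2 difference of 1.24. Krt15, a type I keratin of basal cells, read 612 and 907 on the distal arrays, against 2306 and 2372 on the proximal arrays, a log2 difference of -1.65. Krt2, a type II keratin of the upper epidermis, read 229.9 and 742 on the distal arrays, against 1292 and 2172 on the proximal arrays, a log2 difference of -2.02. The regions did not overlap for any of the 3, as for 74.1% of listed and 34.7% of all probe sets. Limma called Krt1 as higher in the distal and Krt15 as higher in the proximal matrix, 2 of 3 against 0.0666% of all probe sets in either direction, but their names too were available only through the fold of the list. Both calls ended without proximal replicate 1 or 2 and under each of the 3 other scalings. Krt1 thus shared the direction of Krt42, and Krt15 and Krt2 that of Krt17 and Krt6a, so neither direction followed keratin type.

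Of 19 genes in a list drawn up for partners of keratin filaments, 3 could be named. Plec1, the gene of plectin, which links filaments to junctions, had a log2 difference of -0.92. Fam83h, whose protein takes part in keratin organization, had 0.52 with overlapping regions, and Eif2s1, a translation initiation factor gene, had 0.87. Of 18 genes of activated keratinocytes, the state in which Krt6a, Krt6b and Krt17 are known to be induced, only Areg, the gene of the growth factor amphiregulin, could be named. It read 10.1 and 91.8 on the distal arrays, against 141 and 110.5 on the proximal arrays, and the 10.1 lay under the background control there (58.0). Limma called 0 of these 4 genes, against 0.0666% of all probe sets, and 0 had an unadjusted p under 0.05, against 5.09% of all. With 4 genes, counts of 0 are likely at these shares. The genes could also be named only through the fold of the list, so nothing is read from these counts.

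The listed probe sets whose values over the 4 arrays lay closest to those of Krt42 were Lrrc15, Magef1, Expi (now Wfdc18) and Phospho2. Closeness was the Euclidean distance between log2 values after subtracting each probe set's mean over the 4 arrays. Candidates were 1172 named probe sets whose mean over the 4 arrays was brighter than the median of all. The distances were 0.43, 0.78, 0.87 and 0.90, against a median of 4.53. Expi, a gene of the whey acidic protein family, read 1117 and 1519 on the distal arrays, against 44.8 and 170.2 on the proximal arrays. The 44.8 lay below the highest Bacillus subtilis control on that array, which read 96.8. Lrrc15, a gene of a membrane protein with leucine-rich repeats, was far dimmer, at 88.1 and 136.9 on the distal arrays against 7.6 and 10.6 on the proximal arrays. The proximal values of Lrrc15, of Magef1 (19.6 and 20.9) and of Phospho2 (12.3 and 37.7) lay below the highest Bacillus subtilis control on both arrays, so their distances rest on background values. Their proximal mean log2 intensities were 3.17, 4.34 and 4.43, and they passed the brightness filter only through the distal arrays, where they are high. Their place among the closest is thus partly set by the contrast itself, and nothing is read from it. In the authors' deposited table the log2 differences of these 3 were 1.03, 1.42 and 1.11, against 3.16 for Krt42. The members Krt6b, Krt6a and Krt17 ranked 333, 467 and 547 by closeness to Krt42.

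For Krt17 the closest were Tmem30a, Nfat5, Emx2 and Nfib, at distances of 0.09, 0.10, 0.10 and 0.12, against a median of 1.66 over 1173 probe sets. Tmem30a encodes a subunit of lipid flippases, and Nfat5, Emx2 and Nfib encode transcription factors. Nfib read 317 and 228 on the distal arrays, against 507 and 532 on the proximal arrays. Krt6a ranked 97 by closeness to Krt17, at a distance of 0.47, and Krt6b ranked 535. The brighter Krt42 probe set ranked 1107. With 4 arrays these distances mostly follow the size and sign of the difference between regions, on which the list was chosen.

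**Figure D4:**
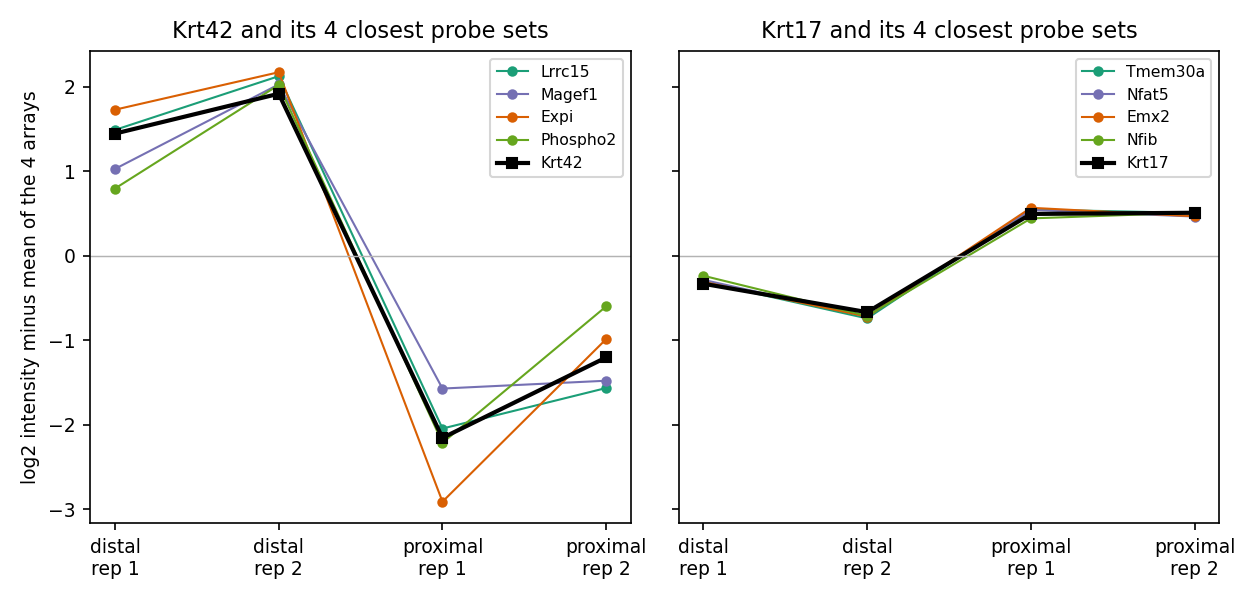
Log2 intensity minus its mean over the 4 arrays (vertical axis) on each array, for Krt42 (left, black squares) and Krt17 (right, black squares) with the 4 listed probe sets closest to each. Lines join the points of 1 probe set and imply no order of the arrays. Krt42 and its neighbours span several log2 units between the regions, and Krt17 and its neighbours about 1.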

How the data were processed

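Total RNA was labelled with a 3′ IVT kit, per the labels' protocols, and read on Affymetrix Mouse430_2 arrays, per the file headers. The deposited value table gives 1 linear intensity per probe set and array. The authors' scaling method was not given in the sources used here. All 4 arrays had a mean of 150.0 once 2% of values at either end were trimmed. The authors' deposited list gives a fold ratio (higher region over lower) and log2 group values, per the file headers from a fold change workflow with distal as control. Gene names come from that list alone.

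Values were floored at 1 and converted to log2. After leaving out 64 control probe sets, 45037 were fitted by limma 3.58.1 under R 4.3.3 (eBayes with an intensity trend in the variance), two-sided, with Benjamini-Hochberg adjustment at 0.05, and the fit was tested on simulated data. A gene was represented by its brightest probe set. Median intensities were 45.2 and 48.4 on distal and 55.7 and 41.6 on proximal arrays. The ratio of 3′ to 5′ control probe sets for Gapdh was 9.4 and 6.73 on distal and 7.73 and 8.15 on proximal arrays. For Actb it was 0.52 and 0.59 on distal and 0.56 and 0.64 on proximal arrays. The 2 ratios thus differ widely, and the part of RNA quality in the folds was not tested. Background was the highest of 27 Bacillus subtilis control probe sets, a rule taken up with the values known.

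Named were all member probe sets, every listed gene of the keratin, filament partner and activated keratinocyte lists, and the 4 probe sets closest to Krt42 and to Krt17. Members, lists and tests were chosen with earlier results of these data known. A comparison of protein sequences was planned and is not reported here. Alternatives were other scalings, an offset of 16, other filters and variance models, a replicate block and each array left out. The labels do not say whether the replicate numbers pair the arrays, and the main fit did not pair them. The correlation of deviations of same-numbered arrays was -0.007 across probe sets, which are not independent. With 2 arrays per region this cannot exclude that same-numbered arrays share an animal or a dissection.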

Additional observations from a re-analysis of the deposited data

How the results depend on the processing

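Of 51 recomputed differences of the members, 44 moved by less than the spread between replicates, 5 moved by more and 2 changed sign. Leaving out a single array cannot move a difference by more than this spread, and the replicate block cannot move it at all. Those settings had to fall among the 44 unless the sign changed, so the count is no measure of stability. The 44 also hold the authors' value of Krt6b, -1.10 against -0.21, because its spread was 0.95. The sign changes were those of Krt6b, to 0.20 without distal replicate 2 and 0.65 without proximal replicate 2, and leaving out single arrays gave it -1.07 to 0.65. Krt42 was at 2.80 as the mean of its probe sets. Under scaling to hybridization controls Krt17 was at -1.51, Krt6a at -1.38 and the second Krt42 probe set at 1.72, and Krt17 was at -1.44 in the authors' deposited table. The 30 limma calls over all probe sets became 9 under quantile normalization, 8 under median centring, 12 under hybridization control scaling, 17 with an offset of 16, 2 among the brighter probe sets and 0 without the variance trend, where 3010 had an unadjusted p under 0.05. With the replicate number as a block there were 90 calls, and the member differences were the same by construction. Leaving out single arrays gave 4 to 899 calls: 899 without distal replicate 1, 635 without distal replicate 2, and 4 and 7 without proximal replicate 1 and 2. The brighter Krt42 probe set was called in 9 of these 11 settings and the other in 4. The brighter one was not called under hybridization control scaling or without the variance trend. The rule had used this contrast, so these counts are no measure of stability either. Krt17 was called in 1, without distal replicate 1, and Krt6a and Krt6b in 0. The calls of Krt1 and Krt15 both ended under each other scaling, with the offset, without the variance trend and without proximal replicate 1 or 2, while all 3 of Krt1, Krt15 and Krt2 were called under the replicate block and without distal replicate 1 or 2. The cause of these changes was not tested. Naming probe sets from a platform annotation was not run. With 2 arrays a region, a difference as small as that of Krt6b is not resolved from the 3.30-fold spread of its proximal arrays.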
